A study of Mus musculus with 4 samples.

Results

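The interferon response genes are 37 mouse genes that cells switch on when interferon reaches them, of which 26 are classically induced by type I interferon and 11 by interferon gamma. They were chosen by name from these 2 groups, which overlap, since many of the genes answer to both interferons. Of the 37 genes, 36 are among the 32285 rows of the RNA table, and all 36 had at least 20 unique molecules (UMIs) over both libraries, as had 10122 genes in all. The RNA of Mx1 was not analysed here, while its chromatin was. The gene nearest that limit was Ifit3, with 20 UMIs, and 26 of the genes had at least 100.

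The PT-Cy group was C57Bl/6 recipients that received 5000000 marrow cells, 500000 CD4 T cells and 500000 CD8 T cells of C3H.SW donor mice, followed on days 3 and 4 by 50 mg/kg of cyclophosphamide, which is toxic to cells that divide. The alloBMT group received the same transplant without the drug, so both groups carry an allogeneic transplant with donor T cells and neither is an untransplanted control. T cells were sorted from the bone marrow on day 14 from 4 pooled mice per group. The 10x Multiome assay reads both the RNA and the open chromatin (ATAC) of a nucleus, and gave 1 library per group and assay. Donor and host T cells were not told apart.

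A single library per group leaves every difference without a replicate check, so nothing was tested and p-values are absent. Values are UMIs and CPM (counts per 1000000 counts of the library or cluster), or log2 ratios (PT-Cy over alloBMT), with exact 95% intervals in brackets that cover counting error only and not the spread between mice. A size rule of 1.5-fold was used to say that a gene was higher or lower. A level summed over a library does not tell more expressing cells from more RNA per cell.

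Type I interferons bind the receptor of Ifnar1 and Ifnar2, whose kinases activate Stat2 and other factors, which together with Irf9 bind the interferon-stimulated response element (ISRE) in promoters. Interferon gamma, which activated T cells secrete, binds Ifngr1 and Ifngr2 and acts through the gamma-activated sequence (GAS) of promoters to switch on genes such as Irf1, itself a transcription factor that binds ISRE-like sites. In T cells the induced genes include antiviral proteins, GTPases that attack the vacuoles of intracellular microbes, and regulators of antigen presentation.

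The letters of these elements were looked for in promoter windows from 250 bases before to 50 after a listed start (RefSeq, GRCm38.p6). A window was listed for 26 of the 37 genes, 34 windows in all. The core of the ISRE, GAAANNGAA on either strand, was found in 16 of the 26 genes (61.5%), against 9.76% of all 27025 genes with a window. The GAS letters, TTCNNNGAA on either strand, were found in 11 genes (42.3%), against 9.55% of all. Both were found in Bst2, Eif2ak2, Gbp5, Gbp7 and Igtp, and the letters of both can share bases, as in Bst2. Neither was found in Irf7, Irf9, Oasl2 or Xaf1. A match describes these letters only and does not show binding. The 7 windows printed here belong to genes whose values are described further on and show the arrangements found, with the matching bases in capitals. They lie at chr4:156200769-156201068 (Isg15, minus strand), chr8:71537423-71537722 (Bst2, minus strand), chr19:34640639-34640938 (Ifit1, plus strand), chr2:62646206-62646505 (Ifih1, minus strand), chr5:114896684-114896983 (Oasl2, plus strand), chr11:53769764-53770063 (Irf1, plus strand) and chr11:58199306-58199605 (Igtp, plus strand), and are written in the direction of transcription. Isg15 holds 3 overlapping ISRE cores from 78 to 58 bases before the start. Bst2 holds a GAS that overlaps ISRE cores, from 136 to 116 bases before the start. Igtp holds a GAS from 45 to 37 and an ISRE core from 34 to 26 bases before the start, Ifit1 3 ISRE cores, Ifih1 2, with 1 of them after the start, Irf1 a GAS alone, and Oasl2 no match.
Isg15: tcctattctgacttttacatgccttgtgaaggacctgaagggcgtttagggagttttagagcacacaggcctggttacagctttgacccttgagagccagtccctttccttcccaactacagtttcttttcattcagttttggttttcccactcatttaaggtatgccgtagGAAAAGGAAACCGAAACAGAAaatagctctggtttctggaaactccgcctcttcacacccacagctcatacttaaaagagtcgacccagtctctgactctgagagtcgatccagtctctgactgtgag
Bst2: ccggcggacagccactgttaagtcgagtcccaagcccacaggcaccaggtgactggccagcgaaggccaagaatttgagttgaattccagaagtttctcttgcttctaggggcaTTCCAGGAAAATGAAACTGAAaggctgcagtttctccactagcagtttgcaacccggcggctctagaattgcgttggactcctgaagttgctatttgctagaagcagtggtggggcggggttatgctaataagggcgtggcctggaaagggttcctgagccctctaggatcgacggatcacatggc
Ifit1: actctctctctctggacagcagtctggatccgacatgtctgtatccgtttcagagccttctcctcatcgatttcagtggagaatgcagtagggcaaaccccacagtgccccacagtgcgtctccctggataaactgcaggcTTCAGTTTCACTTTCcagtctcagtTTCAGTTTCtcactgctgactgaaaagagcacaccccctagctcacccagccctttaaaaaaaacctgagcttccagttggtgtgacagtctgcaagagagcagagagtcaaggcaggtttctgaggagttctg
Ifih1: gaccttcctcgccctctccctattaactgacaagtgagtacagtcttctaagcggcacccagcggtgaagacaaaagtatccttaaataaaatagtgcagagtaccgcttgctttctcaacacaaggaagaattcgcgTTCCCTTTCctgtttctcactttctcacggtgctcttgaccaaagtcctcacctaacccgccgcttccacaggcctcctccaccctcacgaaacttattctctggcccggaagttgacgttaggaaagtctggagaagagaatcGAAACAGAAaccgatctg
Oasl2: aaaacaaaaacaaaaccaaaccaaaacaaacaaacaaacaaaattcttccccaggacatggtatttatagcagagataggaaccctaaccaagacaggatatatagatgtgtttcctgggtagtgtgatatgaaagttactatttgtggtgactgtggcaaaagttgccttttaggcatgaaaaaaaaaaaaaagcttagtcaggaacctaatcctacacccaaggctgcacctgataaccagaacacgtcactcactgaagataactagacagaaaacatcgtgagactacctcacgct
Irf1: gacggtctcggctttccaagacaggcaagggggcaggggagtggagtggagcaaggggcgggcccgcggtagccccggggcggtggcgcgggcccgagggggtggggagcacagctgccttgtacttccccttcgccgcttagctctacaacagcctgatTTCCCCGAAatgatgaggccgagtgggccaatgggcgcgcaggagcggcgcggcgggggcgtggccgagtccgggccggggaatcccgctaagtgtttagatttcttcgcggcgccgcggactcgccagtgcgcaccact
Igtp: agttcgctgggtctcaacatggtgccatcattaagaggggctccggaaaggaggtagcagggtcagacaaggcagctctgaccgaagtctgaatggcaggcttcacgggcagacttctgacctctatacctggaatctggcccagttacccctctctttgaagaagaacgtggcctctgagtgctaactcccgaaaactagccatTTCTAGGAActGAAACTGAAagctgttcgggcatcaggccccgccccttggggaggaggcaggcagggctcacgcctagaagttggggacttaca

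The RNA counts cover the CD4 set of T cells, with 284 cells and 1264107 UMIs in PT-Cy and 926 cells and 3027967 UMIs in alloBMT, a median of 3889 and 2750 UMIs per cell. ATAC counts in peaks were 1538967 in PT-Cy and 6974362 in alloBMT for the CD4 set, and 3117872 and 16605930 for the CD8 set. Of all cell barcodes 2 occurred in both libraries, none of them in the CD4 set. The set carried the T cell gene Cd3e (806 and 2607 UMIs) and Cd4 (514 and 1966), and no UMI of Cd8a in either library, but 166 UMIs of Cd8b1, the other chain of CD8, in PT-Cy (131 CPM) and 303 in alloBMT (100 CPM). RNA of other blood cells was higher in PT-Cy. The summed level was 859 CPM in PT-Cy and 213 in alloBMT for 7 erythroid markers, 259 and 33.0 for 9 neutrophil markers, 175 and 91.8 for 8 monocyte markers, and 57.8 and 12.2 for 9 B and plasma cell markers, of which Jchain and Iglc2 were at 0 in both libraries, Ms4a1 in PT-Cy, and Ebf1 and Pax5 in alloBMT. Fcgr1 of the monocyte list was at 0 in PT-Cy, and Retnlg of the neutrophil list in alloBMT. Markers of plasmacytoid dendritic cells, which make type I interferon, summed to 74.4 CPM in PT-Cy and 46.2 in alloBMT without the interferon response genes among them, with Klk1 and Cox6a2 at 0 in both and Siglech at 0 in alloBMT. Stem cell markers without Ly6a summed to 11.1 and 2.97 CPM, with Cd34 at 0 in both. The part of this RNA in the differences described here was not tested, except where values without the cells that carry it are given.

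The PT-Cy library of the CD4 set held more RNA of a few interferon response genes, among them those of the surface proteins Ly6e, Ly6a and Bst2 and the GTPase Iigp1, and less of the RNA sensor Ifih1. The shares of cells with a UMI of Ly6a, Bst2, Iigp1 and Ifih1 did not exceed that of a haemoglobin gene. Ly6a had a log2 ratio of -0.024, given without an interval, in the 14 PT-Cy and 337 alloBMT cells with no UMI of other blood cell markers. Both points are described further on. Of the 36 genes, 10 were higher in PT-Cy, or 27.8%, against 18.7% of all 10122 genes, and 1 was lower, against 11.9%. Their median log2 ratio was 0.28, beside 0.06 for all genes. The type I genes had 8 of 25 higher and 1 lower with a median of 0.33, and the gamma genes 2 of 11 higher and none lower with a median of -0.08. Scaling by edgeR's TMM factors or DESeq2's size factors instead of the total lowered each log2 ratio by 0.13 or 0.14, which took Igtp under 1.5-fold and no other of the 11 genes.

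**Figure D1:**
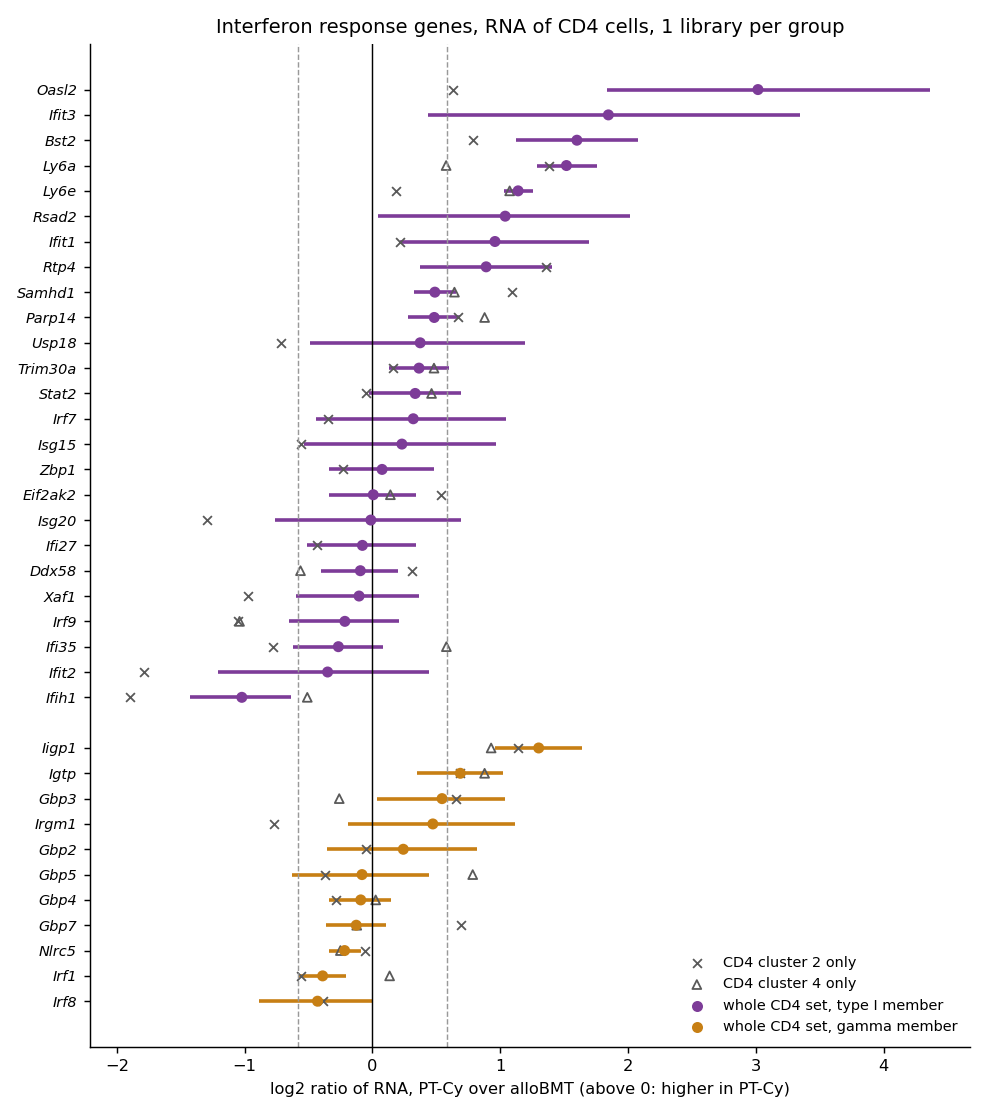
Log2 ratio of PT-Cy to alloBMT RNA in the CD4 set for the 36 measured genes (horizontal axis), type I genes in the upper block and gamma genes in the lower, with 95% counting intervals and dashed lines at 1.5-fold. Crosses give cluster 2 alone and triangles cluster 4 alone. Oasl2 has the highest ratio, at 3.02, and Ifih1 the lowest, at -1.02.

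Among the surface proteins, Ly6e, a lipid-anchored protein that affects the entry of viruses, had the most UMIs of the type I genes. It had 1207 UMIs in PT-Cy (955 CPM) and 1313 in alloBMT (434 CPM), a log2 ratio of 1.14 [1.03 to 1.25]. Ly6a, the stem cell antigen Sca-1, which activated mouse T cells also carry, had 331 UMIs in PT-Cy (262 CPM) and 277 in alloBMT (91.5 CPM), a log2 ratio of 1.52 [1.28 to 1.75]. Bst2 (tetherin), which holds budding virus particles to the cell, had 86 UMIs in PT-Cy (68.0 CPM) and 68 in alloBMT (22.5 CPM), a log2 ratio of 1.60 [1.12 to 2.08]. All 3 intervals lay above 1.5-fold. Ly6a also stands in the stem cell list and Bst2 in the plasmacytoid dendritic cell list. In the 155 PT-Cy and 829 alloBMT cells without a UMI of the neutrophil and B cell markers, a comparison added after the data were seen, the log2 ratios of Ly6e, Ly6a and Bst2 were 1.03, 1.12 and 1.71. In the 14 PT-Cy and 337 alloBMT cells with no UMI of any other blood cell list, that of Ly6a was -0.024 and that of Ifih1, described next, was -0.41. Intervals are not given for these subsets of cells.

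The transcription factors and sensors of the type I list differed less, with 1 exception. Stat2 and Irf9, which are parts of the complex that binds the ISRE, had 79.1 and 50.6 CPM in PT-Cy, against 62.8 and 58.8 CPM in alloBMT, log2 ratios of 0.33 [-0.03 to 0.69] and -0.22 [-0.65 to 0.20]. Irf7, which amplifies type I interferon production, had 25 UMIs in PT-Cy and 48 in alloBMT, a log2 ratio of 0.32. The exception was Ifih1 (MDA5), a sensor of long double-stranded RNA, with 66 UMIs in PT-Cy (52.2 CPM) and 321 in alloBMT (106 CPM), a log2 ratio of -1.02 [-1.43 to -0.64]. Ddx58 (RIG-I), which senses the ends of viral RNA, differed less: it had 102 CPM in PT-Cy and 109 CPM in alloBMT, a log2 ratio of -0.10 [-0.40 to 0.20]. Zbp1, a sensor of Z-form nucleic acid, had 57.8 CPM in PT-Cy and 54.8 in alloBMT. Eif2ak2 (PKR), the kinase that halts translation on double-stranded RNA, had 82.3 CPM in PT-Cy and 81.9 in alloBMT.

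Among the antiviral effectors, enzymes with many UMIs differed less than some genes with few. Samhd1, which breaks down the building blocks of DNA, had 382 CPM in PT-Cy and 273 in alloBMT, a log2 ratio of 0.49 [0.32 to 0.65]. Parp14, an ADP-ribosyltransferase, had 248 CPM in PT-Cy and 178 in alloBMT, a log2 ratio of 0.48 [0.28 to 0.69]. Both stood just under the 1.5-fold line. Trim30a, a regulator of inflammatory signalling, had 183 CPM in PT-Cy and 142 in alloBMT, and Rtp4, a chaperone of receptors that also limits some viruses, had 45.9 and 24.8 CPM, a log2 ratio of 0.89 [0.37 to 1.40]. Oasl2, of the oligoadenylate synthetase family, had 27 UMIs in PT-Cy and 8 in alloBMT, a log2 ratio of 3.02 [1.84 to 4.36], the largest of all the genes. Ifit3 and Ifit1, which bind viral RNA, had 12 and 30 UMIs in PT-Cy, against 8 and 37 in alloBMT, log2 ratios of 1.85 [0.43 to 3.34] and 0.96 [0.21 to 1.69]. Rsad2 (viperin) had 18 UMIs in PT-Cy and 21 in alloBMT, a log2 ratio of 1.04 [0.04 to 2.02]. These low counts give wide intervals, and reads of Ifit1, Ifit3, the Gbp genes, Iigp1 and Trim30a may be shared with near-identical copies. Isg15, a ubiquitin-like protein, Usp18, which removes it, the exonuclease Isg20 and Ifit2 had log2 ratios between -0.35 and 0.37 with intervals that held 0. The same held for Xaf1, with 41.1 CPM in PT-Cy and 44.3 in alloBMT, Ifi27, with 52.2 and 55.2 CPM, and Ifi35, with 73.6 and 88.5 CPM, at log2 ratios of -0.105, -0.08 and -0.27.

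Of the gamma genes, 2 GTPases were above 1.5-fold. Iigp1, a GTPase that attacks vacuoles holding microbes, had 148 UMIs in PT-Cy (117 CPM) and 144 in alloBMT (47.6 CPM), a log2 ratio of 1.30 [0.96 to 1.64], and of 0.70 in the cells without neutrophil and B cell markers. Igtp, of the same family, had 98.9 CPM in PT-Cy and 61.4 in alloBMT, a log2 ratio of 0.69 [0.35 to 1.02], and Irgm1, which regulates the family, had 26.1 and 18.8 CPM, a ratio under 1.5-fold. The guanylate-binding proteins, GTPases of another family, stayed within 1.5-fold. Gbp3 had 44.3 CPM in PT-Cy and 30.4 in alloBMT, a log2 ratio of 0.54 [0.04 to 1.04], and Gbp2 had 30.1 and 25.4 CPM. Gbp4 had 156 CPM in PT-Cy and 166 in alloBMT, Gbp7 165 and 180 CPM, and Gbp5 43 and 109 UMIs, at log2 ratios between -0.13 and -0.08 with intervals that held 0. The regulators had log2 ratios below 0, none past 1.5-fold. Irf1 had 308 UMIs in PT-Cy (244 CPM) and 967 in alloBMT (319 CPM), a log2 ratio of -0.39 [-0.58 to -0.20]. Irf8 had 45.1 CPM in PT-Cy and 60.8 in alloBMT, a log2 ratio of -0.43 [-0.89 to 0.005]. Nlrc5, the activator of MHC class I genes and the gamma gene with the most UMIs, had 563 CPM in PT-Cy and 655 in alloBMT, a log2 ratio of -0.22 [-0.34 to -0.09]. B2m, the light chain of MHC class I and no member of the list, had 2798 CPM in PT-Cy and 2752 in alloBMT. Summed over each list, type I genes made 2891 CPM of PT-Cy RNA and 1932 of alloBMT RNA, and gamma genes 1523 and 1600 CPM.

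The share of cells with a UMI had the same direction for 5 of these genes. Cells were thinned to 1981 UMIs each, which left out 25 PT-Cy and 96 alloBMT cells. Ly6e was then seen in 77.6% of PT-Cy cells (72.0 to 82.5) and 50.6% of alloBMT cells (47.1 to 54.1), and before thinning in 90.8% and 62.1%. Ly6a was seen in 29.3% of PT-Cy and 12.9% of alloBMT cells, Iigp1 in 16.6% and 8.80%, Bst2 in 13.5% and 4.46%, and Ifih1 in 11.2% and 16.7%. Before thinning these shares were 46.5% and 18.4%, 23.2% and 11.4%, 21.8% and 6.16%, and 19.4% and 22.4% in PT-Cy and alloBMT. The intervals of Ifih1 overlapped between PT-Cy (7.63 to 15.7) and alloBMT (14.3 to 19.5) after thinning, and also before it. Hbb-bs, a haemoglobin gene that T cells do not make, was seen in 47.5% of PT-Cy and 18.4% of alloBMT cells, and S100a9, a neutrophil gene, in 8.49% and 1.69%. The shares of Ly6a, Iigp1, Bst2 and Ifih1 lie under the share of Hbb-bs in the same library. In PT-Cy those of Irf1 (30.9%) and Samhd1 (42.9%) did too. Such shares cannot be read as shares of expressing cells, and the part of background RNA in them was not tested. Per cell, the type I list averaged 6.00 UMIs in PT-Cy and 3.92 in alloBMT and the gamma list 3.21 and 3.20.

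The CD4 cells of the libraries fell into different deposited clusters, which were made from these cells, so that differences between clusters are a description. Cluster 2, high in the division gene Mki67, held 238 of the 284 PT-Cy cells and 42 of the 926 alloBMT cells, whereas PT-Cy had 4 cells in cluster 0 and 0 in cluster 1, against 374 and 320 in alloBMT. Cluster 4 held 31 PT-Cy and 34 alloBMT cells. Within cluster 2 the differences turned mixed: 10 of 34 genes were higher in PT-Cy, against 22.4% of 7605 genes, and 8 were lower, against 13.5%, with a median log2 ratio of -0.06. Within cluster 4, 6 of 19 were higher, against 17.3% of 3046 genes, and 1 was lower, against 16.5%, with a median of 0.46. Each of these cluster comparisons rests on 31 to 238 cells a library, and the numbers of genes with 20 UMIs or more differ between them.

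The difference in Ly6e depended on the cluster. It had 971 CPM in PT-Cy cluster 2 and 855 CPM in alloBMT cluster 2, a log2 ratio of 0.18 [-0.06 to 0.43], but 897 and 426 CPM in cluster 4, a log2 ratio of 1.07 [0.60 to 1.56]. In alloBMT clusters 0, 1 and 3 it ranged from 369 to 419 CPM. The interval in cluster 2, where most of the PT-Cy cells are, thus held 0, and with both clusters weighted equally in each library the log2 ratio was 0.54. With the same weights Ifit1 and Rsad2 stood at -0.19 and -0.54. Mki67 had 821 and 866 CPM in PT-Cy and alloBMT cluster 2, 556 and 147 CPM in cluster 4, and 136 to 149 CPM in alloBMT clusters 0, 1 and 3; whether its level bears on Ly6e was not tested. Ifih1 was lower within cluster 2 too, with 45.9 CPM in PT-Cy and 171 CPM in alloBMT, a log2 ratio of -1.90 [-2.57 to -1.21], and had a log2 ratio of -0.51 [-1.67 to 0.62] in cluster 4. Irf9 was lower in both clusters, with log2 ratios of -1.05 [-1.88 to -0.15] in cluster 2 and -1.04 [-2.39 to 0.21] in cluster 4. The interval in cluster 4, on 9 PT-Cy and 17 alloBMT UMIs, held 0. Ly6a, Samhd1, Parp14 and Iigp1 had log2 ratios above 0 in both clusters, of 1.38, 1.09, 0.67 and 1.14 in cluster 2 and 0.58, 0.64, 0.88 and 0.93 in cluster 4, where that of Ly6a lay just under 1.5-fold. The value of Iigp1 in cluster 2 rests on 7 alloBMT UMIs, with an interval of 0.03 to 2.49. Bst2 had a log2 ratio of 0.78 [-0.27 to 2.045] in cluster 2, on 77 PT-Cy and 8 alloBMT UMIs. That interval held 0, and in cluster 4 Bst2 had 6 and 4 UMIs, too few to compare. For Rtp4 and Oasl2, alloBMT cluster 2 had no UMI, and the 43 and 26 UMIs of PT-Cy cluster 2 stood at least 2.56-fold and 1.55-fold higher than the 3 counts that 0 allows there.

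**Figure D2:**
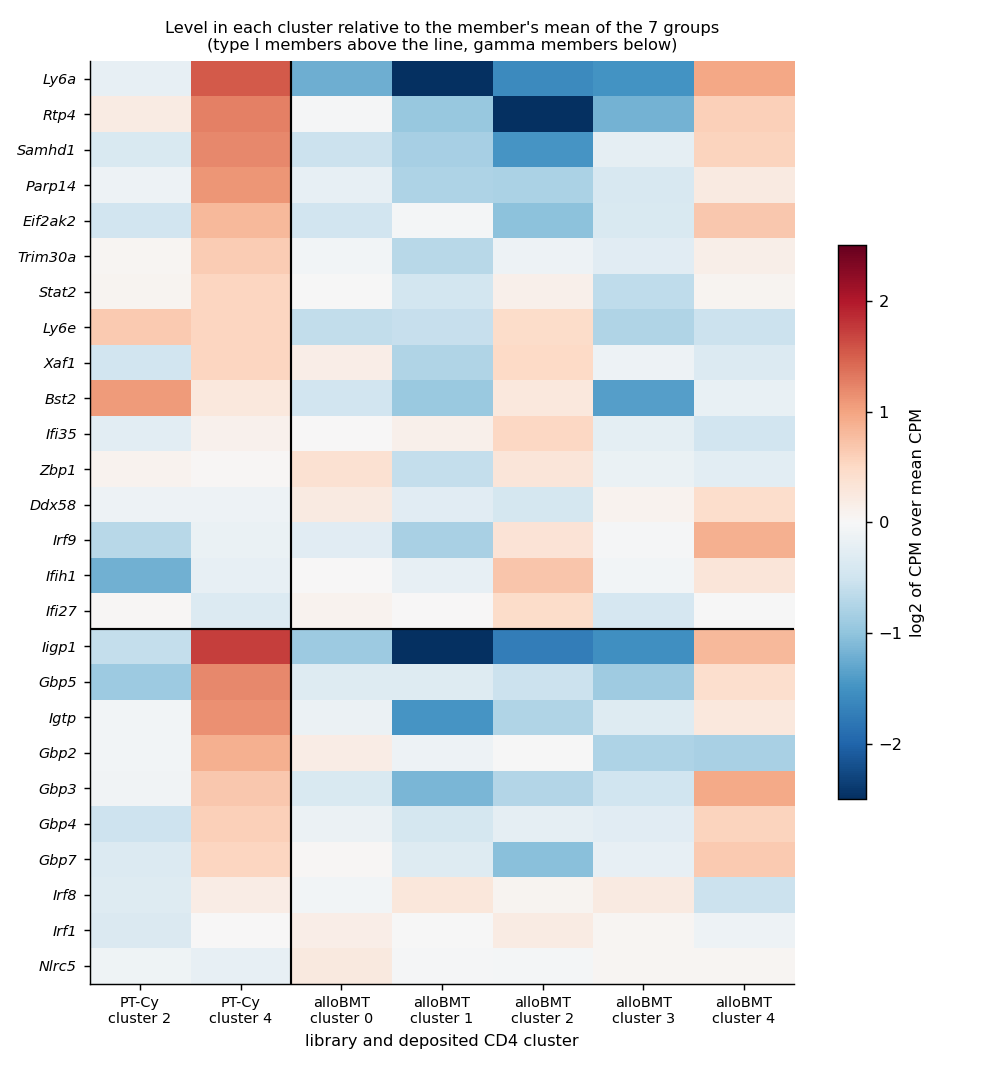
Log2 of each gene's CPM over its mean of 7 cluster and library groups, as colour, for the 26 genes with at least 100 UMIs (rows). Columns are clusters, PT-Cy 2 and 4 on the left and alloBMT 0 to 4 on the right. Of the 26 genes, 13 have their highest level in PT-Cy cluster 4, and 8 their lowest in alloBMT cluster 1. PT-Cy cluster 4 holds only 31 cells, and some of its levels rest on few UMIs, such as 7 for Gbp2 and 10 for Xaf1. The same counts over all genes are not given here.

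Cluster 4 carried the highest levels of many of the genes in both libraries, and is marked by Foxp3, with 207 CPM in PT-Cy and 240 CPM in alloBMT, against 12.4 CPM in PT-Cy cluster 2 and 2.27 to 5.35 CPM in alloBMT clusters 0 to 3. In PT-Cy, 18 of 32 genes were higher in cluster 4 than in cluster 2, against 14.0% of 7447 genes, and 3 were lower, against 22.6%. In alloBMT, 16 of 32 were higher in cluster 4 than in clusters 0, 1 and 3, against 20.2% of 8466 genes, and 2 were lower, against 21.2%. The genes higher in both libraries were 12 of 30, against 4.40% of 7090 genes: Isg20, Ly6a, Rtp4, Eif2ak2, Samhd1, Parp14, Gbp3, Gbp4, Gbp5, Gbp7, Igtp and Iigp1. The interval held 0 for Rtp4 in both libraries, Gbp3 in PT-Cy, and Gbp5 and Igtp in alloBMT. Isg20 had 7 UMIs in cluster 4 of each library. Iigp1 had 413 CPM in PT-Cy cluster 4 and 82.2 in PT-Cy cluster 2, a log2 ratio of 2.33, and 217 and 40.2 CPM in alloBMT cluster 4 and in clusters 0, 1 and 3, a ratio of 2.43. Ly6a had 705 and 209 CPM in PT-Cy and 473 and 74.1 CPM in alloBMT, log2 ratios of 1.75 and 2.67. Ly6e and Nlrc5 had log2 ratios between -0.11 and 0.08 in the same comparisons. Of the other type I genes, 6 of 38 were higher and 12 lower in PT-Cy cluster 4 than in cluster 2, with a median log2 ratio of -0.03, and 12 of 34 were higher and 5 lower in alloBMT cluster 4 than in clusters 0, 1 and 3, with a median of 0.25. The summed level of the erythroid markers was 591 CPM in PT-Cy cluster 4 and 932 in PT-Cy cluster 2, and 163 CPM in alloBMT cluster 4 and 206 to 229 in clusters 0, 1 and 3. The summed neutrophil markers were 78.3 CPM in PT-Cy cluster 4 and 266 in PT-Cy cluster 2. The stem cell list was nearly all Ly6a, which gave 99 of its 102 UMIs in PT-Cy cluster 4, 219 of 229 in PT-Cy cluster 2 and all 61 in alloBMT cluster 4. B and plasma cell markers were 157 and 47.8 CPM in PT-Cy clusters 4 and 2, and 62.0 CPM in alloBMT cluster 4 and 7.04, 13.2 and 9.06 CPM in alloBMT clusters 0, 1 and 3. The part of these markers in the levels of cluster 4 was not tested.

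**Figure D3:**
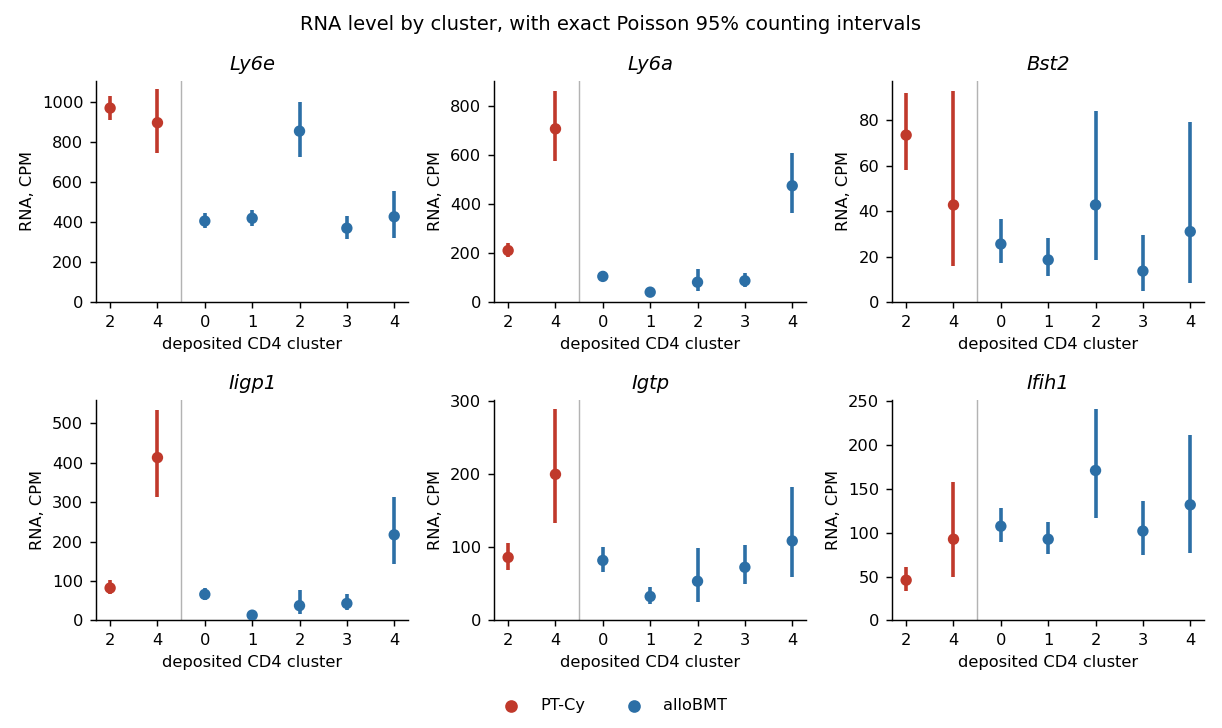
CPM of 6 genes by deposited cluster (horizontal axis), PT-Cy in red to the left and alloBMT in blue to the right, with exact Poisson 95% intervals. Ly6e is high in all groups of cluster 2 and in PT-Cy cluster 4, Ly6a and Iigp1 in cluster 4 of both libraries, and Ifih1 is lowest in PT-Cy cluster 2.

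The alloBMT clusters low in Foxp3 also differed among themselves. Cluster 0 was higher than cluster 1 for 13 of 33 genes, against 10.7% of 8649 genes, and lower for 1, against 10.2%. Their median log2 ratio was 0.46, against -0.003 for all genes. Iigp1 had 75 UMIs in cluster 0 (66.0 CPM) and 15 in cluster 1 (13.2 CPM), a log2 ratio of 2.32 [1.51 to 3.23]. Ly6a had 104 and 39.7 CPM, a log2 ratio of 1.39, and Igtp 81.9 and 32.6 CPM, a log2 ratio of 1.33. Irf7, Ifit1 and Ifit2 had log2 ratios of 1.24, 1.15 and 0.997. Of 34 other type I genes measured in both clusters, 16 were higher in cluster 0 and none lower. Ly6e differed by -0.05 and Irf1 by 0.16. The summed type I list was 2051 CPM in cluster 0 and 1627 in cluster 1, and the gamma list 1770 and 1416. Monocyte markers summed to 121.5 CPM in cluster 0 and 66.1 in cluster 1, and neutrophil markers to 46.6 and 25.6 CPM, and their part in these differences was not tested.

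The dividing cells of alloBMT, cluster 2, were set against clusters 0, 1 and 3 of the same library as well. Of 33 genes, 12 were higher in cluster 2, against 17.8% of 8933 genes, and 4 were lower, against 19.1%. The median log2 ratio was 0.21 for the 33 genes and -0.02 for all genes. The type I genes had 11 of 22 higher and 3 lower, and the gamma genes 1 of 11 higher and 1 lower. Of 34 other type I genes, in contrast, 2 were higher and 10 lower. Ly6e had 855 CPM in cluster 2 and 405 CPM in clusters 0, 1 and 3, a log2 ratio of 1.08 [0.83 to 1.32]. Irf9 had 17 UMIs (90.9 CPM) in cluster 2 and 144 (53.1 CPM) in the other clusters, a log2 ratio of 0.775 [-0.04 to 1.504]. Ifih1 had 171 and 100 CPM, a log2 ratio of 0.77 [0.19 to 1.30], while Samhd1 had 144 and 266 CPM, a log2 ratio of -0.88 [-1.495 to -0.33]. All 5 division genes, which are not members, were higher in cluster 2. The 42 cells of cluster 2 gave 4 to 8 UMIs for several of the genes counted as higher, among them Isg15, Irf7 and Usp18, whose intervals held 0.

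The inputs to the genes were the interferons, their receptors and the pathway that signals from them. Interferon gamma (Ifng) had 96 UMIs in PT-Cy (75.9 CPM) and 652 in alloBMT (215 CPM), a log2 ratio of -1.50 [-1.83 to -1.19], while Ifna1, Ifna2, Ifna4, Ifnb1, Ifnl2 and Ifnl3 had no UMI in either library, which allows up to 2.37 CPM each in PT-Cy and 0.991 CPM in alloBMT. Of 9 receptors, kinases and Stat genes, 3 were higher and 1 lower, with a median log2 ratio of 0.11. Of all 10122 genes, 18.7% were higher and 11.9% lower, to be set beside each count of pathway genes given here. By the rule that names, among genes with at least 100 UMIs, up to 4 of a list with the largest ratios, these included Stat3, lower at -1.20, Ifngr1, higher at 0.73, and Ifnar2, higher at 0.72. Genes with 20 to 99 UMIs, which that rule passes over and which are given here for their size after their values were seen, also passed 1.5-fold. Among them were Ifngr2, a chain of the interferon gamma receptor, at 1.79 [0.45 to 3.20] in this list, the adaptor Myd88 (0.93) and the DNA sensor Cgas (0.92) among sensors and adaptors, and Socs3 (-0.96), an inhibitor of the kinases, among feedback genes. Ifngr1 was higher in PT-Cy cluster 2 (1.09) and lower in PT-Cy cluster 4 (-1.19), where PT-Cy cells had 299 CPM and alloBMT cells 682 CPM. Of 8 sensors and adaptors, 4 were higher and 1 lower, with a median of 0.59. Of those named by the rule, Ikbke, a kinase upstream of interferon, was higher at 0.83, while Tmem173 (STING), at 0.505, the kinase Tbk1, at -0.38, and its target Irf3, at -0.17, were within 1.5-fold. Of 9 feedback genes, 3 were higher and 2 lower: Socs1, an inhibitor of the kinases, at 1.26, Ptpn6, a phosphatase, at 1.03, Irf2bp2 at 0.59, and Irf2, a repressor of interferon genes, at -0.94. Of 44 further type I genes, 16 were higher and none lower, with a median of 0.26 and log2 ratios of 1.91 for Ms4a4c, 0.96 for Epsti1, 0.765 for Ifi208 and 0.73 for Ms4a4b. Some with 20 to 99 UMIs had larger ratios, also given after their values were seen: 5.72 [3.09 to 11.09] for Trim30d and 5.58 [3.97 to 7.90] for Ifitm1, on 1 and 3 UMIs in alloBMT, 4.43 for Ifi213, 3.55 for Ifitm3, 3.35 for Oas2, 2.497 for Ifitm2 and 2.39 for Oas3. Within cluster 2, the log2 ratio of Ifitm1 was 1.60, that of Ifi213 1.36 and that of Ifitm3 1.02. These values are those that 3 alloBMT counts give, the number set in place of 0. They may therefore be lower bounds, and do not show a smaller difference within the cluster. Of 22 further gamma genes, 3 were higher and 1 lower, with a median of 0.09. They included Cxcl10, a chemokine with 68 UMIs, at 2.23 [1.47 to 3.02], and by the rule Cd74, the chaperone of MHC class II, at 2.10, Irgm2 at 1.08, Gbp9 at -0.80, and the MHC class Ib gene H2-T23, within 1.5-fold at -0.49. Cd74 is also high in B cells and other antigen-presenting cells.

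The summed gamma genes had overlapping intervals in cells with and without an Ifng UMI. In PT-Cy the gamma list summed to 1449 CPM in 73 cells with an Ifng UMI and 1558 CPM in 211 cells without, and in alloBMT to 1610 CPM in 394 cells and 1592 CPM in 532 cells. Irf1 was 266 and 233 CPM in PT-Cy, and 334 and 307 CPM in alloBMT. Iigp1 in PT-Cy cluster 2, chosen after its values were seen, had 40.8 CPM in cells with an Ifng UMI (13 UMIs) and 100 CPM in cells without (73 UMIs). Cells with an Ifng UMI were also deeper, with a median of 4850 against 3606 UMIs in PT-Cy and 2882 against 2680 in alloBMT. Interferon gamma is secreted, and a cell without a UMI may still make it.

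Chromatin was the second readout. Accessibility of a gene was the summed count of peaks overlapping it or within 2 kb, and all 37 genes could be measured in both T cell sets. In the CD4 set, 2 of 37 genes were more accessible in PT-Cy, against 9.68% of 23414 genes, and none less, against 6.69%, with a median log2 ratio of -0.03. In the CD8 set, none was more accessible, against 7.52% of 26246 genes, and 1 was less, against 6.78%, with a median of -0.02. In the CD4 set the 2 genes were Iigp1, with 28 counts in PT-Cy (18.2 CPM) and 75 in alloBMT (10.8 CPM), a log2 ratio of 0.76 [0.08 to 1.40], and Oasl2, with 74 and 219 counts (48.1 and 31.4 CPM), a log2 ratio of 0.61 [0.21 to 1.001]. TMM scaling lowered these ratios by 0.20, which left neither past 1.5-fold and 1 gene less accessible. In the CD8 set Iigp1 had 15 counts in PT-Cy and 124 in alloBMT, a log2 ratio of -0.63 [-1.51 to 0.14], and Oasl2 one of 0.49 [0.17 to 0.79]. Ly6e had log2 ratios of 0.11 [-0.21 to 0.41] and 0.45 [0.25 to 0.65] in the CD4 and CD8 sets. Ifih1, lower in RNA, had log2 ratios of -0.38 [-0.73 to -0.05] and -0.23 [-0.48 to 0.02]. Irf1, with its GAS shown above, had -0.34 [-0.61 to -0.07] and -0.18 [-0.36 to -0.003], and Eif2ak2 was the lowest of the CD4 genes at -0.51 [-1.20 to 0.12].

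**Figure D4:**
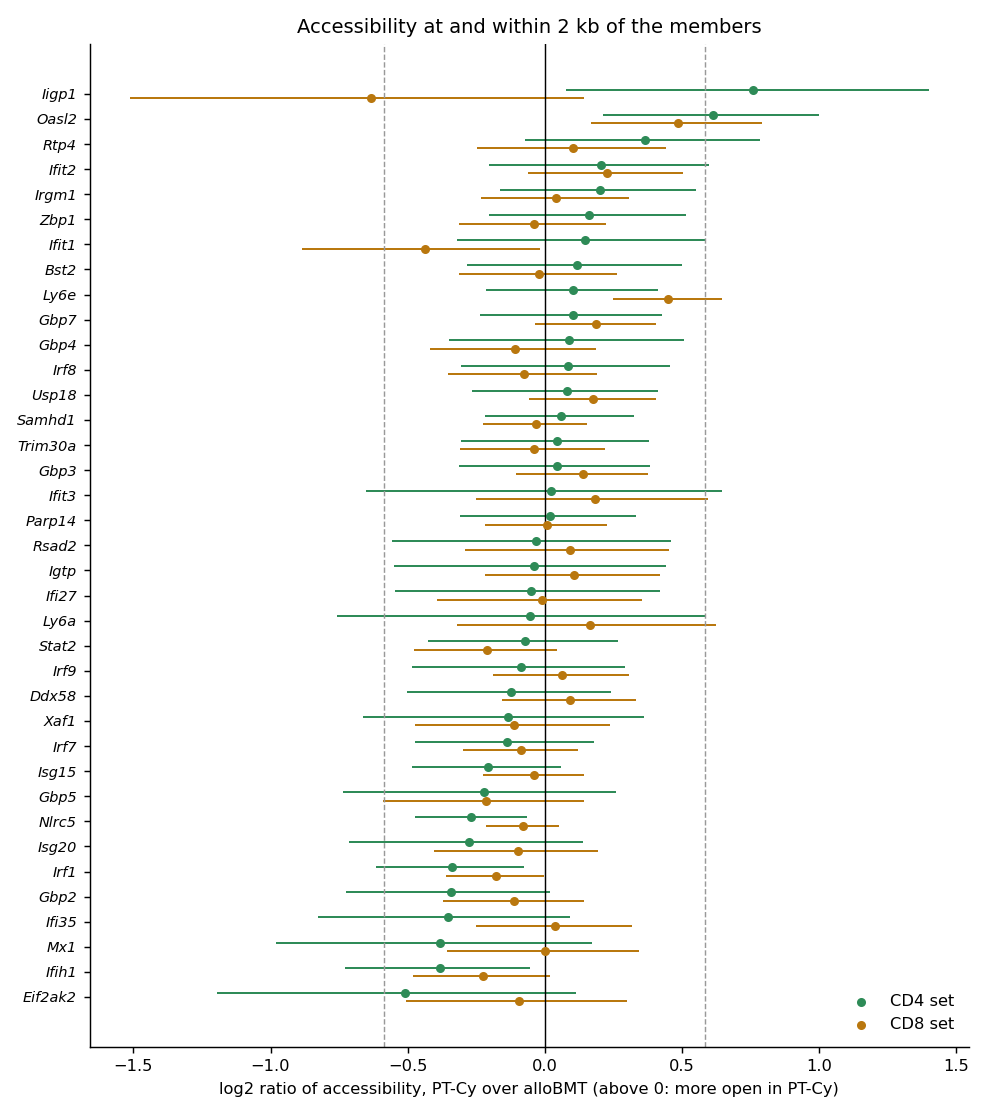
Log2 ratio of PT-Cy to alloBMT accessibility for all 37 genes (horizontal axis), CD4 set in green and CD8 set in ochre, with 95% counting intervals and dashed lines at 1.5-fold. Only Iigp1 and Oasl2 lie past the line in the CD4 set, and Iigp1 in the CD8 set, on the other side.

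Summed accessibility of the type I genes also stayed close between clusters of the CD4 set. The type I genes summed to 1180 CPM of peak counts in PT-Cy cluster 2 and 1194 in PT-Cy cluster 4, and to 1175 to 1278 in the alloBMT clusters of the CD4 set. The gamma genes summed to 606 and 721 in PT-Cy clusters 2 and 4, and to 544 to 703 in alloBMT. The lowest of these alloBMT values, 544 [468 to 628] in cluster 3, and the highest, 703 [672 to 735] in cluster 0, had intervals that did not overlap. Iigp1 varied more. It had 33.4 and 16.4 CPM in PT-Cy clusters 4 and 2, and 27.8, 15.8 and 4.80 in alloBMT clusters 4, 0 and 1, on 5 to 43 counts each. In the CD8 set, the type I genes summed to 1128.5 to 1176 CPM in the PT-Cy clusters and 1025 to 1157 in the alloBMT clusters. The intervals of alloBMT clusters 3 (1025 [989 to 1062]) and 0 (1157 [1128 to 1186]) did not overlap. The gamma genes of the CD8 set summed to 584 to 784 CPM in PT-Cy and 598 to 681 CPM in alloBMT. The value of 784 CPM, in PT-Cy cluster 1, rests on 58 counts in 23 cells. Those of alloBMT clusters 3 (598 [570.5 to 626]) and 2 (681 [647 to 717]) had intervals that did not overlap.

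RNA and accessibility ratios had the same sign for 24 of 36 genes, against 5544 of all 9614 genes. In CD4 cells, Pearson's r between the ratios was 0.61 and Spearman's rho 0.50 over the 36 genes, and 0.44 and 0.42 without the 2 genes farthest out in accessibility. Across all 9614 genes measured in both, the values were 0.38 and 0.27. The points come from the same nuclei and share the depth of the libraries, so the values are given as a description. The standard deviation of the ratios was 0.78 in RNA and 0.26 in accessibility.

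**Figure D5:**
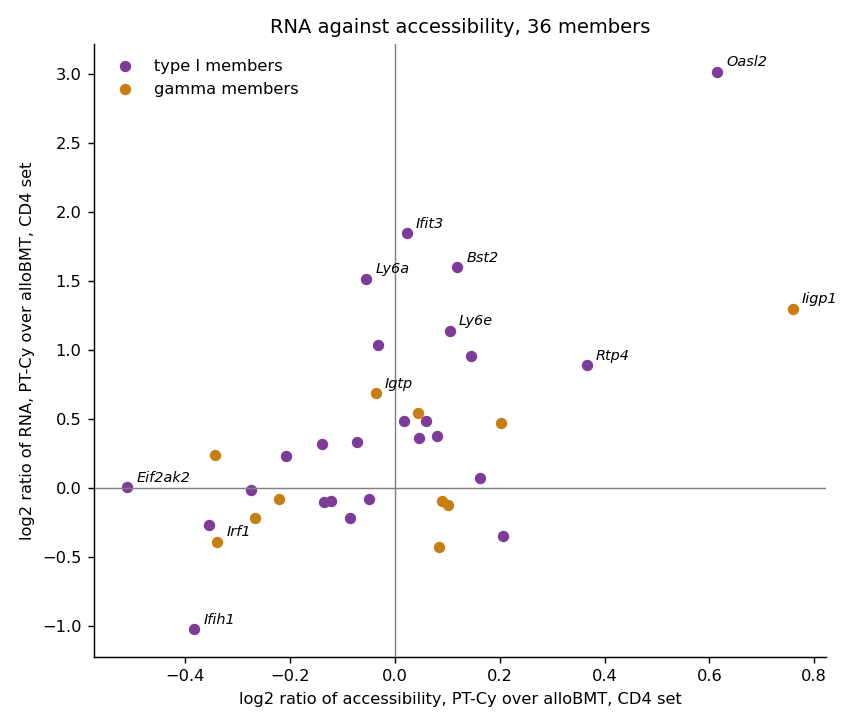
RNA log2 ratio (vertical axis) against accessibility log2 ratio (horizontal axis) of PT-Cy to alloBMT for 36 genes in the CD4 set, type I genes in purple and gamma genes in orange. Iigp1 and Oasl2 lie high on both axes, and Ifih1 is the lowest in RNA.

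The 37 genes held 153 peaks, and each of the 26 genes with a listed start had one in a peak. Only gene bounds were used, so exons and introns are not told apart. In the CD4 set 47 of these peaks had at least 100 counts; none was more open in PT-Cy, against 4.18% of 19971 peaks, and 3 were less open, against 10.4%. In the CD8 set 69 peaks had as many; 1 was more open, against 5.69% of 35872 peaks, and 3 were less, against 9.94%. In the CD4 set the less open peaks lay within Nlrc5 at chr8:94453656-94454643, with 30 counts in PT-Cy and 226 in alloBMT and a log2 ratio of -0.73 [-1.33 to -0.18], at chr8:94447095-94448574, with -0.61, and within Igtp at chr11:58201015-58202060, with -0.81. In the CD8 set the more open peak lay within Ly6e at chr15:74956645-74957115, with 48 counts in PT-Cy and 144 in alloBMT and a log2 ratio of 0.83 [0.33 to 1.31]. The less open ones lay within Stat2 at chr10:128283090-128285081 (-0.79), beside Gbp4 at chr5:105114582-105115028 (-0.78) and within Nlrc5 at chr8:94518928-94519804 (-0.73). At Ifih1, 2 peaks with fewer counts, chosen after their values were seen, held 1 and 5 counts in PT-Cy and 65 and 72 in alloBMT in the CD4 set. They lie within the gene at chr2:62622680-62623434 and chr2:62618843-62619351, with log2 ratios of -3.84 [-9.17 to -1.31] and -1.67 [-3.33 to -0.38]. In the CD8 set their log2 ratios were 0.05 and 0.15.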

How the data were processed

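RNA and ATAC counts of 4 libraries, 1 per group and assay, were analysed; the labels gave the groups. Cell Ranger ARC 1.0.1 and MACS2 were used per the submitters' processing notes, which name the human build GRCh38. Gene names were those of the mouse, and 49.3% of 32851 RefSeq gene starts (GRCm38.p6) lay in a deposited peak, against 6.12% and 5.93% after shifts of 20000 and 200000 bases, so GRCm38.p6 positions were used. The deposited tables hold whole-number counts (UMIs per gene, counts per peak) for each cell, with no normalization; the percent of mitochondrial UMIs that the authors deposited per cell had a median of 4.75% in PT-Cy and 3.69% in alloBMT CD4 cells. Of the 58 columns of the cell table, 52 were not used. Not given in the sources used here are the authors' cell filters, assignment of cells to sets and treatment of doublets. Doublets were not called; instead the 5% of cells highest in UMIs were left out as an alternative.

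Counts were summed per library, set and deposited cluster (at least 20 cells), scaled to their total, and compared as log2 ratios with Clopper-Pearson intervals; levels had Poisson intervals. Comparisons needed 20 counts over both libraries, and single peaks 100. A count of 0 was set to 3 counts. Named were all members with at least 100 UMIs, others past 1.5-fold, up to 4 genes with at least 100 UMIs of each pathway list, and up to 3 peaks per set and direction. Some genes that this rule or the marker lists name are not reported here. The members and lists were chosen with earlier results of these data known. The computation was tested on simulated data. Alternatives used edgeR 4.0.16, DESeq2 1.42.0 and cell subsets. R 4.3.3 ran these, and Python 3.11.15 the rest, with matplotlib 3.10.9, pandas 2.3.3, scipy 1.17.1 and numpy 2.4.6.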

Additional observations from a re-analysis of the deposited data

Results flagged for a closer look

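The accessibility of Iigp1 went in opposite directions in the T cell sets. Its log2 ratio of PT-Cy to alloBMT was 0.76 in the CD4 set and -0.63 in the CD8 set, on 28 and 75 counts in PT-Cy and alloBMT CD4 cells and on 15 and 124 counts in CD8 cells. The RNA of Ifngr1, a chain of the interferon gamma receptor, had a log2 ratio of 1.09 in CD4 cluster 2 and -1.19 in cluster 4. With 1 library per group, neither difference between sets or clusters was tested.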

How the results depend on the processing

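The 10 genes higher and 1 lower in PT-Cy in CD4 RNA became 6 higher among the 26 genes with at least 100 UMIs. They became 6 higher and 8 lower in the 14 PT-Cy and 337 alloBMT cells with no UMI of other blood cell markers. Fewer of the genes had enough UMIs in those cells. Shares over all genes are not given for these RNA alternatives, so the counts cannot be set against a background. The genes lower were 2 by the mean of per-cell CPM, 3 in cells with no Mki67 UMI and 4 with clusters 2 and 4 weighted equally. The median log2 ratio of all the genes (0.28) was 0.15 with TMM factors, 0.14 with DESeq2 size factors, 0.041 with at least 100 UMIs, -0.083 without other blood markers, 0.14 with equal weights and 0.084 without neutrophil and B cell markers, the last chosen after seeing the data. That of type I genes (0.33) was 0.20 with TMM factors, DESeq2 size factors (0.195) and at least 100 UMIs (0.205), 0.049 without other blood markers, 0.073 with equal weights and 0.44 after thinning. That of gamma genes (-0.08) was -0.21 with TMM, -0.22 with DESeq2, 0.10 without Cd8b1, -0.21 without other blood markers and without neutrophil and B cell markers, 0.19 without Mki67, 0.16 with equal weights and 0.095 after thinning. Reversed log2 ratios were those of Ifit1 (-0.19) and Rsad2 (-0.54) with equal weights, and Ly6a (-0.024) without other blood markers, where 14 PT-Cy cells were left; the cause was not tested. Ly6e fell under 1.5-fold with equal weights (0.54), Ifih1 without other blood markers (-0.41), Rsad2 after thinning (0.46), and Igtp with TMM factors (0.56), DESeq2 (0.55) and without neutrophil and B cell markers (0.55). In the CD4 set, genes more accessible (2) were 1 with peaks within 10 kb or each cell counted once per peak, and 0 with TMM factors, which shift accessibility by -0.20, with 1 gene less accessible and a median of -0.23. In the CD8 set, genes less accessible (1) were 0 within 10 kb. Of member peaks with at least 50 counts, 3 of 69 were more open in the CD4 set (8.98% of all such peaks) and 6 less (14.8%), and in the CD8 set 5 of 100 were more open (9.15%) and 15 less (14.5%). No paired analysis was possible because each group has 1 library per assay. Depth limits Ifit3, Rsad2 and Oasl2, and the clusters of 31 to 42 cells.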
